A study of Mus musculus with 7 samples.

Results

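The genes described here are 8 CC chemokines that attract monocytes, macrophages and eosinophils (Ccl2, Ccl3, Ccl4, Ccl6, Ccl7, Ccl8, Ccl9 and Ccl11) and 2 receptors for such ligands (Ccr1 and Ccr2). They were picked by symbol, and all 10 were found among the 16019 genes measured in prostate RNA. The tissue came from mice with experimental autoimmune prostatitis (EAP), an inflammation of the gland raised by an immune response to prostate antigens. Of the 7 libraries, 4 were from EAP mice injected intraperitoneally for 14 days with LIT927 at 25 mg/kg per day, a compound that neutralises CXCL12, the chemokine ligand of CXCR4, by binding it. The other 3 were from EAP mice given the solvent alone, methyl-β-cyclodextrin, and are called vehicle; their labels number them 1, 3 and 4. Every mouse thus carried the disease model, and healthy prostate was not analysed here. The labels do not tie libraries to separate animals, and p-values therefore reflect only how far these libraries scatter, some of which may be technical.

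Chemokines are small secreted proteins that form gradients and draw leukocytes through G protein-coupled receptors on the cell surface. In the CC family the leading pair of conserved cysteines is adjacent. CCR2, engaged by CCL2 and CCL7, brings inflammatory monocytes out of bone marrow and into tissue, where they become macrophages. CCL3, CCL4, CCL6 and CCL9 belong to the macrophage inflammatory protein group, and CCL3, CCL6 and CCL9 act on CCR1. CCL11, or eotaxin, attracts eosinophils through CCR3. None of these proteins is the ligand that LIT927 binds.

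Depth was even, with 32023785 to 35240765 fragments recovered per library, but the tissue pieces differed within both groups. Summed FPKM (fragment counts scaled to gene length and library size) of 7 seminal vesicle genes ran from 50975 to 550007 with vehicle and from 142306 to 299696 with LIT927. The 7 prostate luminal markers summed to 5910 to 166203 FPKM over all libraries, so prostate transcripts were present in each. Uroplakin transcripts of bladder and urethral lining stood out in vehicle replicate 3 and LIT927 replicate 3, at 264 and 328 summed FPKM against at most 43.6 elsewhere. The 20 most abundant genes took 22.3% of all FPKM in vehicle replicate 1 and 76.7% in vehicle replicate 4, and since FPKM are relative, all other genes share what is left. Results are therefore also given after median-of-ratios scaling, which divides each library by its typical gene.

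All 10 genes had a lower mean with LIT927 than with vehicle, both of FPKM and of log2(FPKM + 1), and on the latter scale 44.5% of all genes did. Counts of genes with a lower or higher mean below are of log2(FPKM + 1). The ratio of the vehicle mean to the LIT927 mean ran from 1.55 for Ccl3 and Ccl4 to 3.84 for Ccl2 and 3.85 for Ccl11. No member passed the test after adjustment over all genes (limma adjusted p = 0.998 for each), nor did any of the 16019 genes (0%); at an unadjusted p under 0.05 limma counted 589 genes (3.68%), and voom on recovered fragments called 0 genes after adjustment as well. At an unadjusted p under 0.05, 8 of the 10 members were lower, against 2.96% of all genes. That count of 8 was 1 without vehicle replicate 1, where 1.79% of all genes were called lower. It was 5 without vehicle replicate 3, vehicle replicate 4 or LIT927 replicate 1, each left out in turn, against 2.9%, 8.02% and 1.82% of all genes. Every LIT927 library lay below every vehicle library for Ccl2, Ccl6 and Ccl7, 3 of 10 members, where 2.12% of all genes did so. After median-of-ratios scaling this held for 7 of 10, against 4.99% of all genes. On values as deposited, it held for 5 members without vehicle replicate 3, 6 without vehicle replicate 4 and 7 without LIT927 replicate 4. The shares of all genes were 4.05%, 16.8% and 4.76%. It held for 3 without vehicle replicate 1, LIT927 replicate 1 or LIT927 replicate 3, against 2.88%, 2.72% and 3.29% of all genes. Without LIT927 replicate 2 it held for 4, against 2.5%. Leaving out a library cannot make separated groups overlap, so Ccl2, Ccl6 and Ccl7 had to be among them each time. The median difference over the members was -0.78 on the log2(FPKM + 1) scale, on which all differences below are given, while that over all genes was 0.02.

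**Figure D1:**
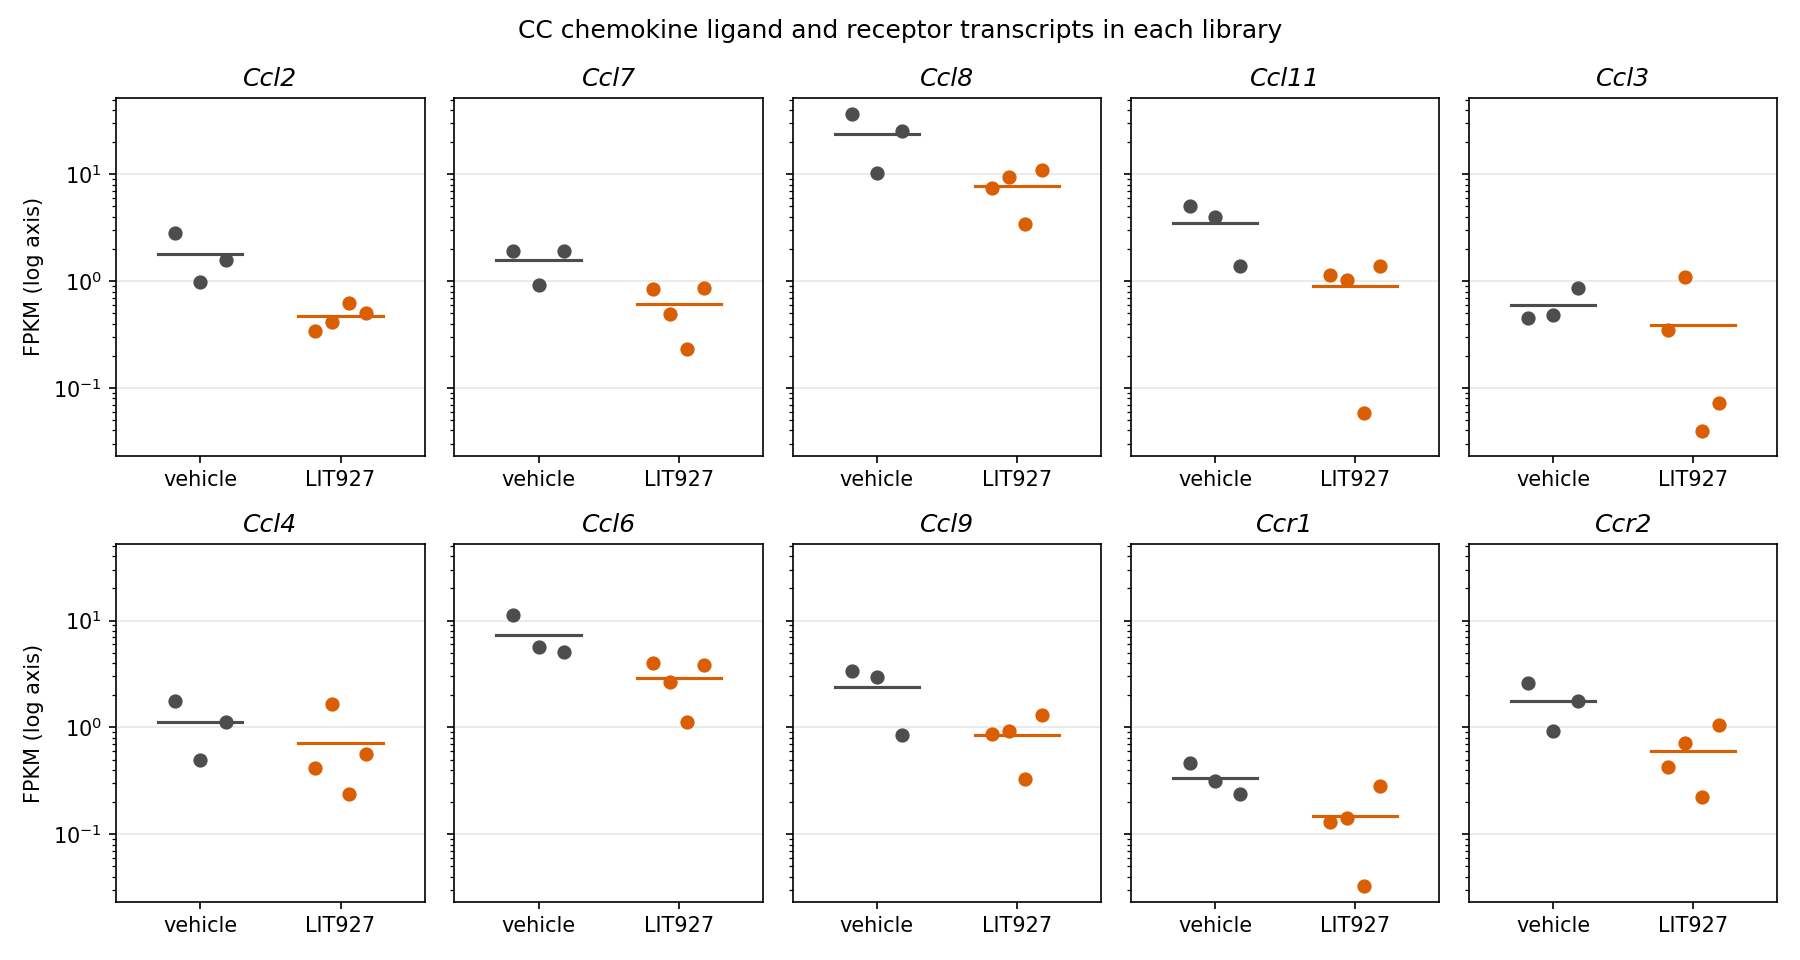
FPKM of each gene (log axis) in the 3 vehicle and 4 LIT927 libraries, 1 point per library in replicate order from left to right, with a line at the group mean. Points of the groups do not overlap for Ccl2, Ccl6 and Ccl7, and Ccl8 is the highest gene in every library, from 3.41 to 36.5 FPKM.

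Ccl2, Ccl7 and Ccl8 encode monocyte chemoattractant proteins, and their vehicle means were 3.84, 2.61 and 3.08 times the LIT927 means. Ccl2 (mm10 chromosome 11, 82035571 to 82037453, plus strand) stood at 2.84, 0.989 and 1.58 FPKM in vehicle replicates 1, 3 and 4. In LIT927 replicates 1 to 4 it stood at 0.342, 0.418, 0.618 and 0.498 FPKM. All LIT927 libraries were therefore lower than the lowest vehicle library. The means were 0.469 ± 0.118 (SD, n = 4) and 1.80 ± 0.94 FPKM (SD, n = 3), a difference of -0.88 (SE 0.22, 95% interval -1.40 to -0.36; limma adjusted p = 0.998, unadjusted 0.00462, exact permutation p = 0.0286). This two-sided permutation p is the smallest that 35 divisions of the libraries allow. These values rest on 9 to 16 fragments per LIT927 library and 27 to 77 per vehicle library. Another annotated gene, Gm17268, lies over Ccl2 on the opposite strand, and the strand setting of the counting is not given, so fragments of the pair could not be told apart.

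Ccl7 (chromosome 11, 82045712 to 82047525, plus strand), which encodes another CCR2 ligand, was at 1.93, 0.922 and 1.91 FPKM with vehicle. With LIT927 it was at 0.841, 0.497, 0.233 and 0.859 FPKM. The highest LIT927 library, replicate 4, was thus just under the lowest vehicle library, replicate 3. The difference was -0.68 (SE 0.22, 95% interval -1.20 to -0.16; limma p = 0.0165, exact permutation p = 0.0286), on 6 to 24 and 25 to 54 fragments per library.

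Ccl8 (chromosome 11, 82115185 to 82116799, plus strand), whose mouse product acts on CCR8, was the most abundant member. Vehicle replicates 1, 3 and 4 held 36.5, 10.3 and 25.4 FPKM, and LIT927 replicates 1 to 4 held 7.49, 9.46, 3.41 and 10.9 FPKM. One LIT927 library, replicate 4, was above vehicle replicate 3, and the other 3 were below all vehicle libraries. On the log2(FPKM + 1) scale the difference of -1.44 was the farthest from 0 of the 10 (SE 0.49, 95% interval -2.57 to -0.30; limma p = 0.0194; exact permutation p = 0.0571). That rank depends on the scale. With 0.1 added before the log in place of 1, Ccl11 (-2.05) and Ccl2 (-1.65) were farther from 0 than Ccl8 (-1.55). At 56 to 628 fragments per library, counting error was small beside the spread between libraries. Without any one library the difference ran from -1.93 (without vehicle replicate 3) to -1.07 (without vehicle replicate 1). Ccl12, the neighbour of Ccl8 and a monocyte chemoattractant too, is no member but is given for its place in the same gene block: it was at 3.28 ± 2.06 FPKM (SD, n = 3) with vehicle and 1.30 ± 0.50 FPKM (SD, n = 4) with LIT927, with overlapping groups.

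The 250 bases before the start of Ccl8 are shown because it is the member with the highest level, and capitals mark motif matches (RefSeq, GRCm38.p6, which has the coordinates of mm10; chr11:82114935-82115184, plus strand). TATAAA begins at position -32, counted from the start, and 12.4% of 32851 promoter windows of that length hold this motif on either strand. TTCCTC, the reverse of the PU.1 core GAGGAA, begins at position -240, and 23.3% of windows hold it. The other motifs searched, TTCNNNGAA and its variant with 1 more N (STAT), TGANTCA (AP-1) and the NF-κB motif, have no match in this window, and 7.02%, 5.85%, 6.75% and 3.90% of windows hold them.
Ccl8: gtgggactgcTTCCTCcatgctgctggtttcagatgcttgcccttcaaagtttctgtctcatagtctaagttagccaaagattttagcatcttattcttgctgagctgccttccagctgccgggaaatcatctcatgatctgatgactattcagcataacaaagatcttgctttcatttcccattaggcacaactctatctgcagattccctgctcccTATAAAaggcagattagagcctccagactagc

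Ccl11 (chromosome 11, 82057823 to 82062955, plus strand), the eotaxin gene, was high in a different pair of vehicle libraries. It stood at 5.06, 3.99 and 1.37 FPKM in vehicle replicates 1, 3 and 4 and at 1.14, 1.03, 0.0581 and 1.39 FPKM in LIT927 replicates 1 to 4. Vehicle replicate 4 and LIT927 replicate 4 were level, at 52 fragments each, and LIT927 replicate 3 held only 2 fragments. The means were 3.48 ± 1.90 (SD, n = 3) and 0.904 ± 0.584 FPKM (SD, n = 4), a difference of -1.19 (SE 0.41, 95% interval -2.14 to -0.24; limma p = 0.0207, exact permutation p = 0.0571). Without vehicle replicate 1 the difference was -0.92, and without vehicle replicate 4 it was -1.60. The receptor gene Ccr3 was at most at 0.0340 FPKM, resting on 0 to 4 fragments per library. The 5 measured eosinophil genes (Epx, Prg2, Il5ra, Ear2 and Ccr3) summed to 0.255 to 1.89 FPKM with vehicle and 0.206 to 1.20 FPKM with LIT927, and none reached a mean of 1 FPKM. Epx, eosinophil peroxidase, was the one of these with a higher mean with LIT927, on 13, 16, 0 and 8 fragments in LIT927 replicates 1 to 4 against 1, 0 and 2 in the vehicle libraries, and the groups overlapped. The other 4 had a lower mean with LIT927, 0 of them at an unadjusted limma p under 0.05, and the list rests on few fragments.

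Ccl3 and Ccl4 encode macrophage inflammatory proteins 1-alpha and 1-beta, made by activated macrophages and by T and NK cells, and had the lowest ratios of vehicle to LIT927 mean FPKM, 1.55 for both. Ccl3 (chromosome 11, 83647844 to 83649355, minus strand) was at 0.451, 0.486 and 0.861 FPKM with vehicle and at 0.349, 1.08, 0.0394 and 0.0726 FPKM with LIT927. LIT927 replicate 2 was the highest of all 7 libraries and replicates 3 and 4 the lowest, with 28 fragments against 1 and 2. The difference was -0.26 (SE 0.24, 95% interval -0.82 to 0.31; limma p = 0.324, exact permutation p = 0.486). LIT927 replicate 2 was the only LIT927 library above the lowest vehicle library, so without it the groups could not overlap. The difference was then -0.47. In that setting every LIT927 library was below every vehicle library for 2.5% of all genes. Ccl4 (chromosome 11, 83662584 to 83664683, plus strand) was at 1.75, 0.492 and 1.12 FPKM with vehicle and 0.417, 1.67, 0.236 and 0.565 FPKM with LIT927. Here too LIT927 replicate 2 exceeded the other 3 LIT927 libraries, and it was close to the highest vehicle library. The difference was -0.32 (SE 0.31, 95% interval -1.04 to 0.39; limma p = 0.326, exact permutation p = 0.400), -0.56 without LIT927 replicate 2 and -0.11 without vehicle replicate 1. Both intervals include 0 and also differences as far below it as those of Ccl7.

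Ccl6 and Ccl9, neighbours on the minus strand that in mice encode CCR1 ligands made by myeloid cells, both stood among the 4 most abundant members. Ccl6 (chromosome 11, 83587882 to 83593087) was at 11.3, 5.62 and 5.05 FPKM with vehicle and at 4.05, 2.66, 1.13 and 3.83 FPKM with LIT927. No LIT927 library reached the lowest vehicle library. The difference was -1.09 (SE 0.40, 95% interval -2.02 to -0.16; limma p = 0.0274, exact permutation p = 0.0286), on 52 to 547 fragments per library. A non-coding gene, E230016K23Rik, overlaps Ccl6 on the opposite strand, so the limit on strand given for Ccl2 holds here too. Ccl9 (chromosome 11, 83572919 to 83578636) was at 3.40, 2.96 and 0.848 FPKM with vehicle and at 0.875, 0.916, 0.331 and 1.31 FPKM with LIT927. Only vehicle replicates 1 and 3 were above the LIT927 libraries, while vehicle replicate 4 was below 3 of them. The difference was -0.80 (SE 0.34, 95% interval -1.60 to -0.01; limma p = 0.0480, exact permutation p = 0.171), -0.57 without vehicle replicate 1 and -1.19 without vehicle replicate 4.

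The 250 bases before the starts of Ccl6 and Ccl9 are shown because, of the member pairs compared, these adjacent genes had the highest-scoring alignment there. Capitals mark this best local alignment, 16 identical bases of 17 (RefSeq, GRCm38.p6; Ccl6 chr11:83593088-83593337 and Ccl9 chr11:83578637-83578886, both minus strand). The block begins at position -59 of Ccl6 and -18 of Ccl9. Its score was 29, and the next highest was 23, for Ccl6 with Ccr1 (17 identical bases of 20 columns). Ccl9 with Ccr2 held more identical bases, 28 of 39 columns, at a lower score of 18. Ccl9 also holds TATAAA at -92, overlapped by a match on the other strand at -94, and another on that strand at -224. It further holds TGAATCA at -53 and, on the strand opposite to the gene, an NF-κB motif at -35. None of the 6 motifs matches in Ccl6. With 50 transcribed bases added to each window, which are not printed, the alignment grew to 59 identical bases of 74 columns; among the other 14 pairs of the 6 members with a window in the table it held at most 28 identical bases.
Ccl6: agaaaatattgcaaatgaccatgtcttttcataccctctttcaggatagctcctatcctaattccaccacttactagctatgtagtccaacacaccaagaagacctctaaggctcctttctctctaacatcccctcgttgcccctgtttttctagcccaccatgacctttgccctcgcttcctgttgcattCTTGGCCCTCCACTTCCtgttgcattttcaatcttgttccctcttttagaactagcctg
Ccl9: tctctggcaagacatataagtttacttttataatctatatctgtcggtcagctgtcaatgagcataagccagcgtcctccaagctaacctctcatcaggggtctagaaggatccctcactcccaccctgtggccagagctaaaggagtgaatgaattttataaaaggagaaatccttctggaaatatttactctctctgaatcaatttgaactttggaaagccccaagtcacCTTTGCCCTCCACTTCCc

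The receptor genes were lower with LIT927 in most but not all libraries. Ccr2 (chromosome 9, 124101950 to 124113557, plus strand), which marks inflammatory monocytes, was at 2.59, 0.919 and 1.77 FPKM with vehicle and at 0.427, 0.713, 0.224 and 1.06 FPKM with LIT927. LIT927 replicate 4 lay above vehicle replicate 3, and the other LIT927 libraries lay below all vehicle libraries. The difference was -0.76 (SE 0.26, 95% interval -1.37 to -0.15; limma p = 0.0211, exact permutation p = 0.0857), on 34 to 175 fragments per LIT927 library and 147 to 412 per vehicle library. Ccr1 (chromosome 9, 123962124 to 123968692, minus strand), found on neutrophils and monocytes, was the least abundant member. It stood at 0.461, 0.313 and 0.240 FPKM with vehicle and at 0.130, 0.141, 0.0330 and 0.284 FPKM with LIT927. Its difference of -0.22 (SE 0.09, 95% interval -0.43 to -0.02; limma p = 0.0381, exact permutation p = 0.0857) is compressed by the pseudocount of 1: with a pseudocount of 0.1 it was -0.90.

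**Figure D2:**
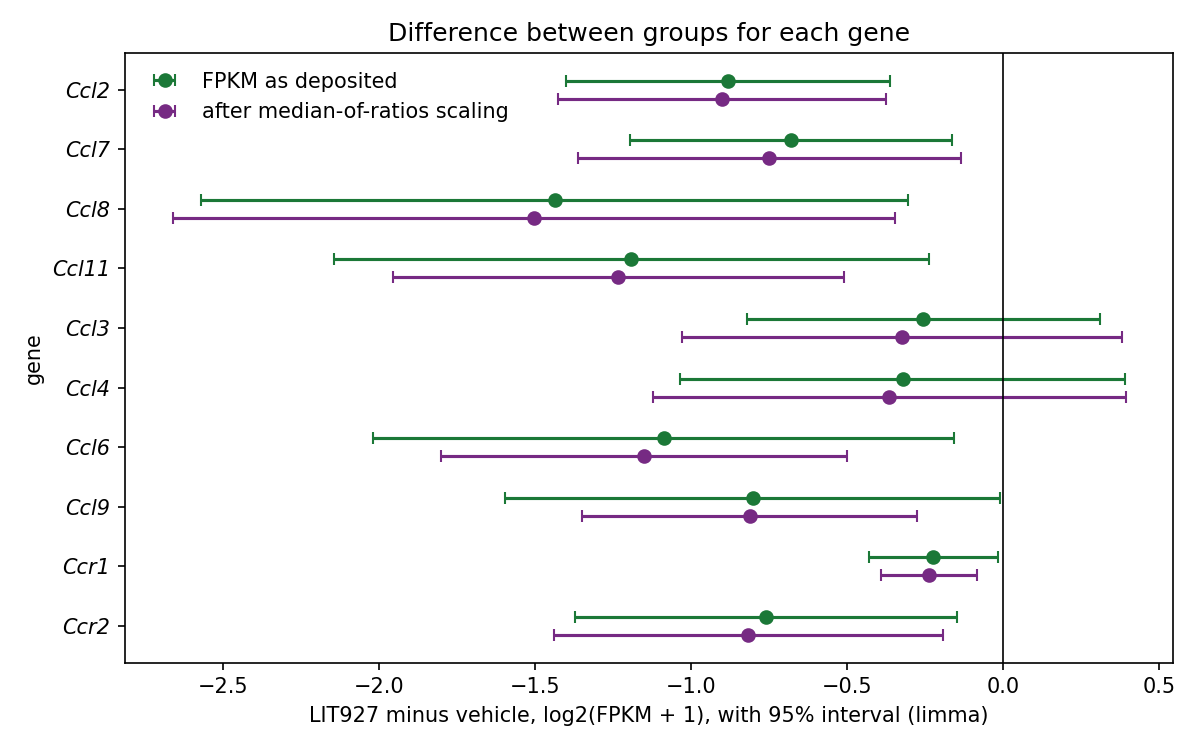
Difference between LIT927 and vehicle in log2(FPKM + 1) for each gene with its 95% interval from limma, on values as deposited and after median-of-ratios scaling. The intervals of Ccl3 and Ccl4 cross 0 on both scales, and Ccl8 lies farthest from 0, at -1.44 and -1.50. Adding 1 before the log compresses the differences of less abundant genes.

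In both groups the levels followed nearly the same order. Ccl8 was above Ccl6 in each of the 7 libraries, and Ccl6 above Ccl11 in each, although the ranges of these neighbours in the order overlapped within each group. Ccl11 and Ccl9 came next, at 3.48 and 2.40 FPKM on average with vehicle and 0.904 and 0.857 FPKM with LIT927. Ccl2, Ccr2 and Ccl7 lay between 1.59 and 1.80 FPKM with vehicle and could not be ordered, since none was above the next in every library. With LIT927 the means of Ccl4, Ccl7, Ccr2 and Ccl2 lay between 0.469 and 0.722 FPKM with overlapping ranges. Ccl3 and Ccr1 were lowest in both groups.

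The 8 ligands together came to 63.2, 25.8 and 38.1 FPKM in vehicle replicates 1, 3 and 4 and to 15.5, 17.7, 6.06 and 19.5 FPKM in LIT927 replicates 1 to 4, so every LIT927 library was below every vehicle library. Shares within this sum do not depend on how libraries are scaled, and they overlapped between groups for each of the 8 ligands. Ccl8 made up 54.8% ± 13.5 (SD, n = 3) of the sum with vehicle and 53.6% ± 3.8 (SD, n = 4) with LIT927, and Ccl6 made up 17.6% ± 4.3 and 19.9% ± 4.6. Single libraries departed from this make-up: Ccl2 took 10.2% of the sum in LIT927 replicate 3. In LIT927 replicates 1, 2 and 4 it took 2.20% to 2.56%, below the 3.84% to 4.49% of the vehicle libraries. The overlap for Ccl2 thus rested on LIT927 replicate 3. Ccl11 and Ccl9 took 15.5% and 11.5% in vehicle replicate 3, each the highest share of the 7 libraries. Ccl3 and Ccl4 took 6.12% and 9.41% in LIT927 replicate 2, also the highest.

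**Figure D3:**
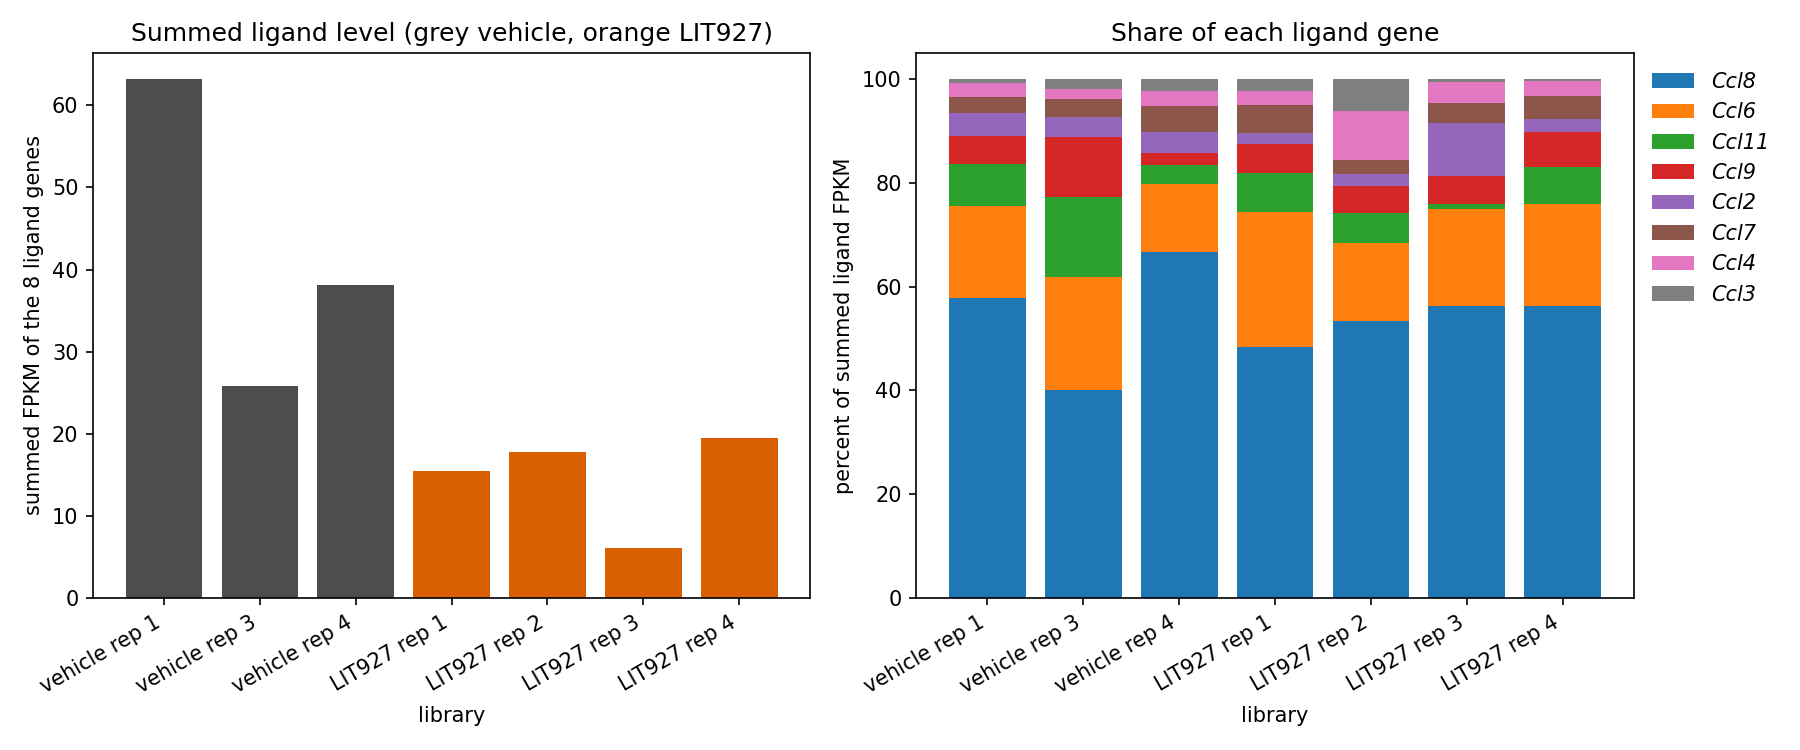
Left, summed FPKM of the 8 ligand genes in each library, grey for vehicle and orange for LIT927. Right, the percent of that sum from each ligand gene: the sum is lower in each LIT927 library, at 6.06 to 19.5 against 25.8 to 63.2 FPKM, while Ccl8 takes the largest share in every library.

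Across libraries, 9 of the 10 members were highest in vehicle replicate 1, Ccl3 being the exception, and 9 were lowest in LIT927 replicate 3, Ccl2 being the exception. The median-of-ratios factors of these libraries, above 1 where the typical gene is high, were 1.31 and 0.813. The lowest factor of the 7 libraries, 0.665, was that of vehicle replicate 4, which was second highest for some members. The members parted over the second highest library, which was vehicle replicate 4 for Ccl2, Ccl7, Ccl8, Ccl3 and Ccr2, vehicle replicate 3 for Ccl11, Ccl6, Ccl9 and Ccr1, and LIT927 replicate 2 for Ccl4. Ccl2, Ccl7, Ccl11 and Ccl8 lie with Ccl12 within 81.2 kb of chromosome 11, and Ccl9, Ccl6, Ccl3 and Ccl4 with Ccl5 within 138.9 kb, so that each block holds genes of both patterns. Over the 7 libraries Pearson r of log2(FPKM + 1), given as a description, was 0.98 for Ccl8 with Ccr2 and for Ccl11 with Ccl9, 0.73 for Ccl3 with Ccl4, and 0.13 for Ccl3 with Ccl9.

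**Figure D4:**
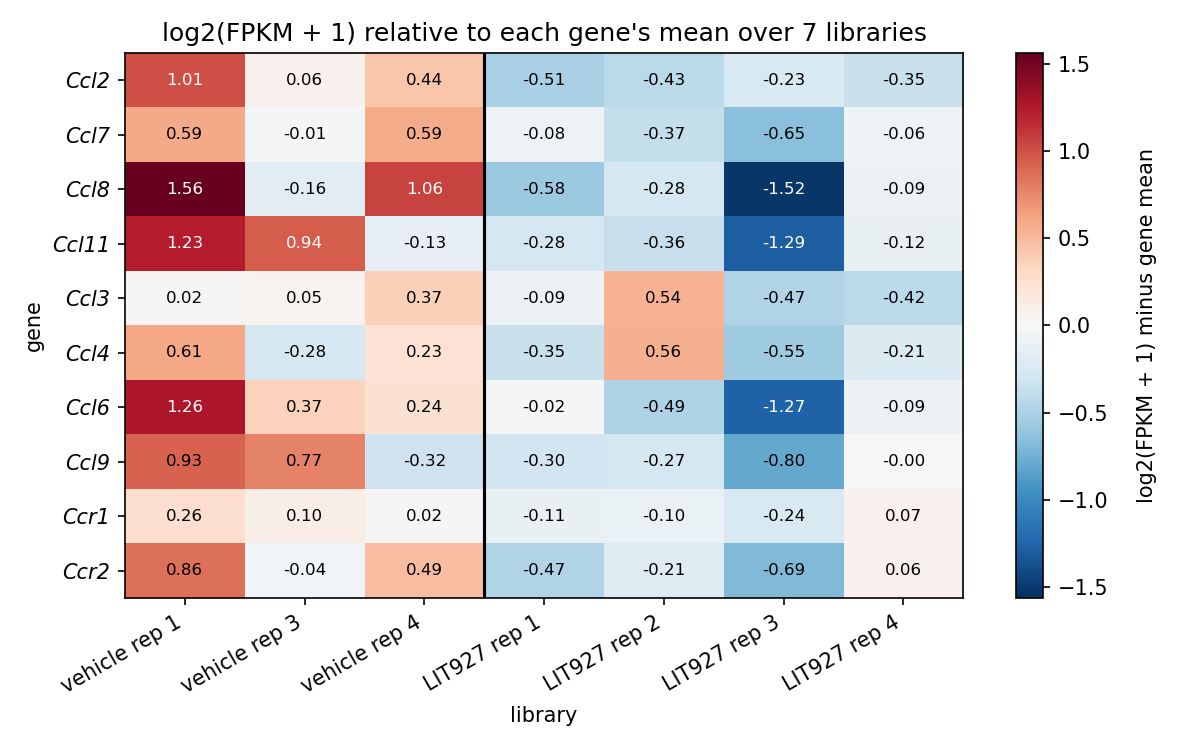
Level of each gene (rows) in each library (columns) as log2(FPKM + 1) minus the gene's mean over the 7 libraries, red above and blue below it, with the vehicle libraries left of the black line. Vehicle replicate 1 is above the mean for every gene, from 0.02 for Ccl3 to 1.56 for Ccl8, and LIT927 replicate 3 is below it for every gene.

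Genes with the most similar profile were sought for the 7 members with a mean of at least 1 FPKM, among 11060 genes at that level, by Pearson r over the 7 libraries. They were chosen for a high r, so no p is given, and depth, tissue make-up and group are shared by all points. The closest to Ccl8 were Coro1a, a leukocyte actin regulator (r = 0.997, Spearman rho = 1), and Laptm5, a lysosomal protein of blood cells (r = 0.995, rho = 1). Coro1a was also the closest to Ccr2 (r = 0.991, rho = 1), followed by Selplg, the P-selectin ligand gene (r = 0.988). For Ccl6 they were Csf2rb, the shared receptor chain for GM-CSF, IL-3 and IL-5 (r = 0.990), and Fgl2 (r = 0.988). Cxcl13, which encodes a B cell attractant, ranked first for Ccl9 (r = 0.992) and second for Ccl11 (r = 0.989), with Thrsp first for Ccl11 (r = 0.992) and Tmem229b second for Ccl9 (r = 0.983). Ccl7 was closest to Gbp5, an interferon-induced GTPase (r = 0.980), and Il2rg, the common gamma chain (r = 0.978). Ccl2 had the loosest neighbours, Tmem106a (r = 0.962) and Ltb, lymphotoxin beta (r = 0.948).

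Markers of cells that make or receive these signals are given beside the members; 0 of them passed the limma test after adjustment. Of 14 monocyte and macrophage markers 13 had a lower mean, against 44.5% of all genes. At an unadjusted p under 0.05, 5 of the 14 were lower, against 2.96% of all genes. The summed FPKM of the 14 markers ran from 145 to 388 with vehicle and from 53.3 to 149.9 with LIT927, none being at 0. In bulk tissue, fewer cells of a type and less RNA per cell cannot be told apart. Per 100 FPKM of these markers, a ratio chosen after the values were seen, the groups overlapped for all 10 members. Lyz2 held 48.9% to 52.8% of that sum with vehicle and 34.9% to 47.8% with LIT927, so its share itself differed between groups. With Lyz2 left out the groups still overlapped for all 10. For Ccl8 this rested on 13.91 in vehicle replicate 3 and 13.99 in LIT927 replicate 4. Its means were then 18.96 ± 4.65 (SD, n = 3) and 11.80 ± 1.67 (SD, n = 4). Only Ccl4 then had a higher mean with LIT927, 1.04 against 0.878. With Lyz2 kept, Ccl8 came to 9.41, 7.11 and 11.2 FPKM per 100 in the vehicle libraries. In the LIT927 libraries it came to 6.74, 7.92, 6.41 and 7.30. Ccl2 came to 0.731, 0.680 and 0.698 with vehicle and to 0.308, 0.350 and 0.332 in LIT927 replicates 1, 2 and 4. In LIT927 replicate 3 the same ratio for Ccl2 was 1.16, the highest of all.

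The part of other cell types in the members' differences was not tested, and apart from neutrophil genes their sums overlapped between groups. Of all 16019 genes, 7131 (44.5%) had a lower mean and 8888 a higher one. T and NK cell markers were lower in 8 of 8, with sums of 5.99 to 16.5 FPKM and 1.55 to 8.68 FPKM. The latter maximum was in LIT927 replicate 3. At an unadjusted limma p under 0.05, 4 of these 8 were lower, against 2.96% of all genes. Neutrophil markers, of which 2 of 6 reached a mean of 1 FPKM, had a lower mean in 6 of 6 (S100a8 by 0.04 only, with a higher mean FPKM), with sums of 5.21 to 7.89 FPKM and 0.252 to 4.81 FPKM that did not overlap, and Ngp, Mpo and Camp were each at 0 in at least 1 library. Of the 6 neutrophil markers 5 were lower at an unadjusted limma p under 0.05, against 2.96% of all genes. For 5 of the 6 the groups did not overlap, against 2.12% of all genes. In the fibroblast, endothelial, smooth muscle, mast cell and skeletal muscle lists 0 genes were lower at an unadjusted p under 0.05. Fibroblast markers, from cells known to make Ccl11, were lower in 8 of 8, with sums of 88.3 to 475 and 69.6 to 232 FPKM. Endothelial markers were lower in 6 of 6, with sums of 18.5 to 73.9 FPKM and 3.86 to 34.02 FPKM. Smooth muscle markers were lower in 6 of 6, with sums of 2793 to 9922 and 850 to 5616 FPKM. Mast cell markers were lower in 4 of 5, with sums of 2.94 to 11.1 and 1.52 to 6.12 FPKM. Skeletal muscle markers were lower in 5 of 5 (310 to 1054 and 93.8 to 612 FPKM), but Myh4, Tnnt3 and Mylpf were at 35.1, 147 and 89.3 FPKM in vehicle replicate 3 and at no more than 1.86 FPKM in any other library. The 5 vas deferens and epididymis genes were higher in 5 of 5 (99.4 to 9618 and 19.0 to 20193 FPKM).

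Further genes of the pathway were read from 3 lists, and 0 of their genes passed the limma test after adjustment. Of 10 other CC chemokine and receptor genes measured, 8 had a lower mean with LIT927 and 2 a higher one, with a median difference of -0.31. Of all genes, 44.5% had a lower mean. At an unadjusted p under 0.05, 4 of the 10 were lower, against 2.96% of all genes. Ccl22, which attracts regulatory T cells through CCR4, was at 0.722 ± 0.430 FPKM (SD, n = 3) with vehicle and 0.159 ± 0.152 FPKM (SD, n = 4) with LIT927. Ccl24, another eotaxin gene, was at 0.752 ± 0.454 and 0.187 ± 0.212 FPKM. Ccrl2, a receptor that binds chemerin without signalling, had a mean difference of 0.10 and was not lower with LIT927.

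Among 20 genes of receptor signalling and adhesion in myeloid cells, 16 had a lower mean, against 44.5% of all genes. Of the 20, 6 were lower at an unadjusted p under 0.05, against 2.96% of all genes. The median difference over the 20 was -0.33. Dock2, a Rac activator needed for leukocyte migration, was at 0.787 ± 0.305 FPKM (SD, n = 3) with vehicle and 0.285 ± 0.013 FPKM (SD, n = 4) with LIT927. The integrin chains Itga4 and Itgal were at 0.400 ± 0.170 and 1.11 ± 0.77 FPKM with vehicle and at 0.106 ± 0.098 and 0.211 ± 0.146 FPKM with LIT927. The groups did not overlap for Dock2, Itga4 and Icam1, 3 of the 20 genes, against 2.12% of all genes. Gnai2, the G protein subunit through which chemokine receptors signal, was at 134 ± 67 and 116 ± 34 FPKM, with overlapping groups.

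Of 15 measured inducers and transcription factors for these chemokines, 10 had a lower mean, against 44.5% of all genes. The other 5 had a higher one (Stat6 by 0.02 only, with a lower mean FPKM). The median difference was -0.13, against 0.02 over all genes. Of the 15, 2 were lower at an unadjusted p under 0.05, against 2.96% of all genes. Jun, a subunit of AP-1, was at 15.3 ± 3.6 FPKM (SD, n = 3) with vehicle and 8.58 ± 3.34 FPKM (SD, n = 4) with LIT927, and Irf1, an interferon-induced factor, at 9.99 ± 1.72 and 7.25 ± 1.53 FPKM. The NF-κB genes Rela and Nfkbia differed by 0.07 and 0.02, with SEs of 0.26 and 0.22. Nfkb1, of the same list, went the other way, at -0.26 (SE 0.28). Tnf was at most at 0.223 FPKM in any library and Ifng at most at 0.281 FPKM, which leaves both near the limit of detection.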

How the data were processed

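The members and gene lists were chosen with earlier results of these data known. Per the labels' protocols, VAHTS Universal V6 libraries were made from TRIzol RNA. Alignment and counting tools in the submitters' processing notes are HISAT2 and HTSeq, with fastp and build mm10; their versions, roles, annotation, strand setting and gene filters were not given in the sources used here. Values from the authors are FPKM, a unit read from the numbers themselves, since the headers call them only expression. Within a gene, values are multiples of what 1 fragment is worth, and this gave whole fragments for all 16019 genes within 0.01 fragments. FPKM are relative to the library, so abundant secretory transcripts lower all others.

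limma 3.58.1 in R 4.3.3 compared LIT927 (4 libraries) with vehicle (3) on log2(FPKM + 1) values made from the deposited FPKM, allowing a mean-variance trend, no covariate and no filter, and Benjamini-Hochberg adjustment over all genes at a threshold of 0.05. The scale understates changes of low genes. Means and SDs are of FPKM. Exact permutation tests were two-sided over 35 divisions. The code was tested on simulated data. Named genes were the 10 members, the 3 smallest p of each pathway list where none passed, and the 2 genes most like each member of at least 1 FPKM on average; other genes named were chosen after their values were seen, and some genes that meet the rule are not reported here. Coordinates are from GENCODE M21, of the same build. Promoter windows came from RefSeq (GRCm38.p6), for 6 members; 6 motifs were searched on both strands and windows were aligned with Biopython 1.88 (match 2, mismatch -3, gap opening -5, extension -2). The alternatives comprised a smaller pseudocount (0.1), a filter (1 FPKM in 3 libraries or more), 3 scalings (median-of-ratios, upper-quartile, and without the 20 most abundant genes), voom, library weights, a replicate block, and leaving out libraries. Figures used matplotlib 3.10.9.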

Additional observations from a re-analysis of the deposited data

Results flagged for a closer look

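In LIT927 replicate 3 the summed FPKM of 7 prostate luminal markers was 166203, against 5910, 7015 and 16438 in LIT927 replicates 1, 2 and 4. In that library Sbp made up 114916 FPKM of the sum and Spink1 50277, while Tgm4 was at 26.0 FPKM, its lowest of the 7 libraries, and Pbsn at 233. The sum of 5 urothelial markers there was 328 against 35.03, 29.3 and 42.0. The gaps to the nearest library were 0.934 and 0.958 of the group's range, above Dixon's 95% critical value for 4 samples, which chance passes in about 1 of 20 groups; 23 sets of 4 values were examined. The same library held the lowest value of 9 of the 10 chemokine and receptor genes, and none of these genes was itself set apart by this measure.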

How the results depend on the processing

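All 10 members kept a lower mean with LIT927 under each alternative that could test them, apart from Ccl4 with library weights, where its difference was 0.0597. With a minimum of 1 FPKM in 3 libraries only 6 members could be tested, and 6 were lower. Library weights ran from 0.181 for vehicle replicate 4 to 3.80 for LIT927 replicate 1. Vehicle replicates 1 and 3 had weights of 0.434 and 3.41, so the vehicle mean rested mostly on replicate 3. With these weights 466 of 16019 genes passed limma's adjusted threshold, 2 of the 10 members among them. These were Ccl11 (-1.22, adjusted p = 0.0487) and Ccl9 (-0.98, adjusted p = 0.0487), whose shares of the ligand sum were highest in vehicle replicate 3. The same weights brought Ccl8 to -0.50, Ccr2 to -0.36 and Ccl7 to -0.24. Rescaling without the 20 most abundant genes let 1 gene pass, no member. The median difference over the members, -0.78, was -1.33 with a pseudocount of 0.1 and -1.45 with voom, which add less to low values, -0.43 with library weights, and -0.94 to -0.57 without any one library. The groups did not overlap for 7 members after median-of-ratios scaling, 6 after upper-quartile scaling, 7 without the 20 most abundant genes, and 5 without vehicle replicate 3 and LIT927 replicate 3 together, against 4.99%, 5.06%, 5.36% and 5.2% of all genes. Without vehicle replicate 1, 1 of 10 members was lower at an unadjusted p under 0.05 (1.79% of all genes); leaving the same library out after median-of-ratios scaling, an alternative chosen after seeing the data, gave 6 (3.5%). Across all 22 alternatives Ccl2 stayed between -1.80 and -0.62, with unadjusted p from 0.000263 to 0.0213 and adjusted p of at least 0.0668. Same-numbered libraries deviated together for numbers 1 and 3 (r = 0.565 and 0.700) but not 4 (r = -0.238). Not every library correlated best with its own number, so numbers are not taken to pair mice. With the replicate block 0 genes and 0 members passed, and the median difference was -0.81. LIT927 replicate 2 has no vehicle library of its number and adds nothing to the difference in that fit. Its differences are therefore those found without LIT927 replicate 2. Depth limits low genes such as Ccl3, which rests on 1 to 28 fragments per library.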
